A study of Saccharomyces cerevisiae with 14 samples.

Results

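The 10 genes described here encode ATPases and subunits of chromatin remodellers other than SWI/SNF: ISW1, ISW2, CHD1, FUN30, INO80, IES6, ARP5, ARP8, SWR1 and IRC5. They were taken by name from 5871 protein-coding genes of budding yeast, with every nucleosome call from 1000 bp before the start codon to 300 bp past the stop codon. These regions held 246 of the 63281 nuclear calls in the wild type. Nucleosomes were mapped by MNase-seq, in which micrococcal nuclease cuts the linker DNA and the protected mononucleosomal fragments are sequenced. All strains were BY4741, grown in YPD (rich medium) at 30 °C and crosslinked with 1% formaldehyde for 15 min. The wild type (WT, 3 samples) was set against 4 mutants of SNF2, the ATPase of SWI/SNF. The mutants were the strain labelled dAT (3 samples), read here as lacking the AT-hook region, the strain labelled dSnAC (3 samples), read as lacking the SnAC domain, CD (3 samples), catalytically dead through K798A, and dSnf2 (2 samples), read as the SNF2 deletion. The comparison asks how nucleosomes over the genes of the other remodellers are arranged when SWI/SNF is altered.

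Remodellers use ATP to slide, space, evict or edit nucleosomes. The ISWI enzymes (Isw1, Isw2) and Chd1 space nucleosomes into regular arrays over genes, INO80 slides and positions nucleosomes near promoters, and SWR1 exchanges histone H2A for the variant H2A.Z. In yeast, a typical promoter has a nucleosome-depleted region, flanked on the gene side by the +1 nucleosome, and SWI/SNF and RSC are the remodellers best known for keeping promoters open.

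Each strain has 1 list of calls, made by the authors on merged replicates (WT and CD 3, the others 2), so no test between strains was possible and every difference below is between pooled lists, with counting error only. Replicate 1 of dAT and replicate 2 of dSnAC are named in no list's label. The calls held 31879115 (dSnAC) to 64957209 (WT) reads, and the median call 514 to 1030 reads, which gives an exact 95% Poisson half-width of 6.16% to 8.75%. Over the SNF2 coding region occupancy was 0.663 (WT), 0.796 (dAT), 0.731 (dSnAC), 0.732 (CD) and 0.00559 (dSnf2), so the list labelled dSnf2 is the one nearly without SNF2 reads. Occupancy is given relative to the median call of each list, which is 1. Promoter occupancy is averaged over the bases from -300 to -1 bp, counted from the start codon. Strains are compared as log2((mutant + 0.1) / (WT + 0.1)), which understates differences at sparsely occupied promoters. A difference of 0.58 in either direction (1.5 times) was counted.

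Of the 10 promoters, IES6 alone passed this size in any mutant. The promoters of ISW2, CHD1, FUN30 and ARP8 were lower than WT in all 4 mutants, IRC5 was higher in all 4, and ISW1 and INO80 differed by at most 0.10 in size. Of all genes, 8.75% (dAT), 9.62% (dSnAC), 11.7% (CD) and 18.4% (dSnf2) had a promoter ratio above 0, so most were lower. The count at or above 0.58 was 0 (dAT), 0 (dSnAC), 1 (CD) and 1 (dSnf2), against 0.204%, 0.307%, 0.528% and 0.715% of all genes. The count at or below -0.58 was 0 in every mutant, against 11.0%, 3.76%, 0.630% and 0.307% of all genes in the same order. The median of the 10 ratios was -0.14 (dAT), -0.13 (dSnAC), -0.08 (CD) and -0.06 (dSnf2), beside all-gene medians of -0.30, -0.23, -0.15 and -0.08. Relative to these shifts, 8, 7, 6 and 6 of the 10 genes lay above the all-gene median. ISW2 and ARP8 lay below it in all 4 mutants, whereas in dAT CHD1 lay above it by 0.03 and FUN30 by 0.06. With the window from -500 bp, which takes in calls over ATS1, FUN30 was above WT in dAT (0.07) and dSnAC (0.04), by less than the counting error. Scaling by the total of each list gave all-gene medians of -0.27, -0.21, -0.13 and -0.07.

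**Figure D1:**
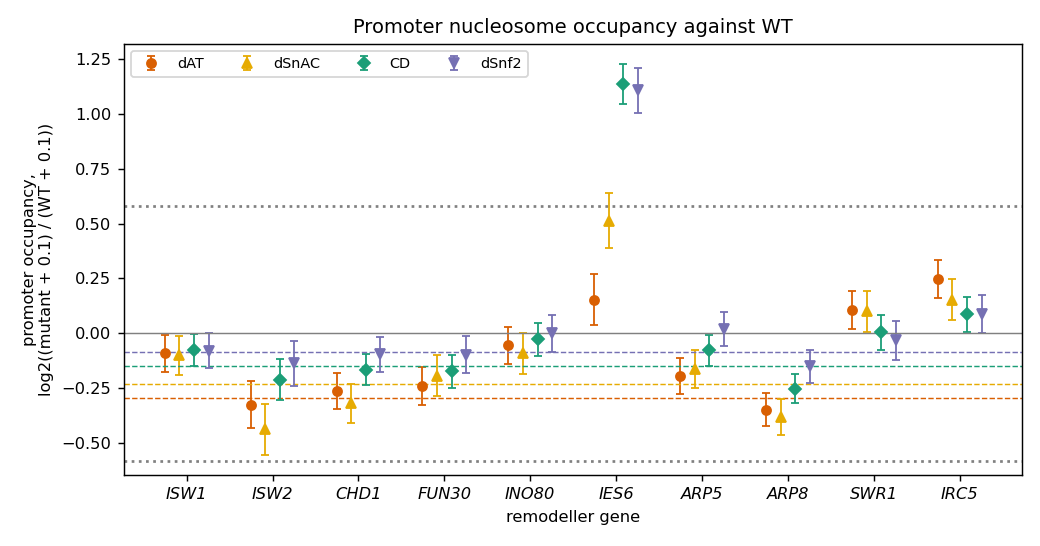
Promoter log2 ratio (y axis, pseudocount 0.1) of each of the 10 genes (x axis) in the 4 mutants, with 95% counting intervals as bars, all-gene medians as dashed lines in each mutant's colour and the size rule of 0.58 as dotted lines. IES6 in CD (1.14) and dSnf2 (1.11) lies above the upper dotted line, and no gene lies below the lower one.

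IES6 (YEL044W, chromosome V, 69757 to 70257, plus strand, sacCer3) encodes a small subunit of INO80 that forms a module with Arp5. Its promoter occupancy was 0.245 (WT), 0.283 (dAT), 0.392 (dSnAC), 0.657 (CD) and 0.642 (dSnf2). CD and dSnf2 were thus the most occupied, dAT was closest to WT, and dSnAC was intermediate. The log2 ratios were 0.15, 0.51, 1.14 and 1.11 in the order dAT, dSnAC, CD and dSnf2, with counting half-widths of 0.12, 0.12, 0.09 and 0.10. In CD no other gene of the 5871 had a higher ratio, and in dSnf2 1 gene had. Compared directly, CD exceeded dAT by 0.98 and dSnAC by 0.62 on the log2 scale, whereas dSnf2 and CD differed by -0.03.

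The single calls show where this occupancy lies. In WT a nucleosome sat with its dyad at -576 bp, and its occupancy of 0.901 (95% Poisson interval 0.844 to 0.961) was 0.130 (dAT), 0.216 (dSnAC), 0.364 (CD) and 0.493 (dSnf2). All 4 mutants were below WT here, with log2 ratios of -2.12, -1.66, -1.11 and -0.75. Of all matched calls in the genome only 2 had a lower ratio in dAT. A call nearer the gene went the other way: a weak WT call at -307 bp with an occupancy of 0.136 was matched to calls of 0.349 at -258 bp in dAT, 0.712 at -234 bp in dSnAC, 1.37 at -258 bp in CD and 1.21 at -249 bp in dSnf2. The interval of the CD call was 1.30 to 1.45, and the log2 ratios were 0.93, 1.78, 2.64 and 2.47. In CD 1 matched call of the genome had a higher ratio, and in dSnAC and dSnf2 2 had.

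The 2 sites were ordered differently. At -576 bp the difference from WT was largest in dAT and smallest in dSnf2, while near -258 bp it was smallest in dAT and largest in CD. Summed over the calls from -700 to -1 bp, occupancy was 1.33 (WT), 0.664 (dAT), 1.01 (dSnAC), 2.02 (CD) and 2.06 (dSnf2). This stretch was thus below WT in dAT and dSnAC and above it in CD and dSnf2. In windows chosen after the values were seen, the mean from -700 to -400 bp was 0.440, 0.0728, 0.124, 0.234 and 0.302 in the order WT, dAT, dSnAC, CD and dSnf2. From -400 to -100 bp it was 0.129, 0.220, 0.367, 0.736 and 0.681.

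Weaker calls of the same promoter also differed. A broad WT call at -91 bp with an occupancy of 0.292 was 0.151 in dAT, 0.0773 in CD and 0.0956 in dSnf2, and had no partner in dSnAC. An additional call near -400 bp, with no WT partner, had 0.0345 (dAT), 0.0778 (dSnAC), 0.213 (CD) and 0.261 (dSnf2). With calls of at least 0.25 alone, the widest gap between dyads was 485 bp in WT (-576 to -91 bp), 310 bp in dAT, 291 bp in dSnAC, 310 bp in CD and 302 bp in dSnf2. The WT call at -91 bp lies just above that limit, and in the mutants the gap ended at the dyad near 52 to 57 bp, inside the coding region.

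**Figure D2:**
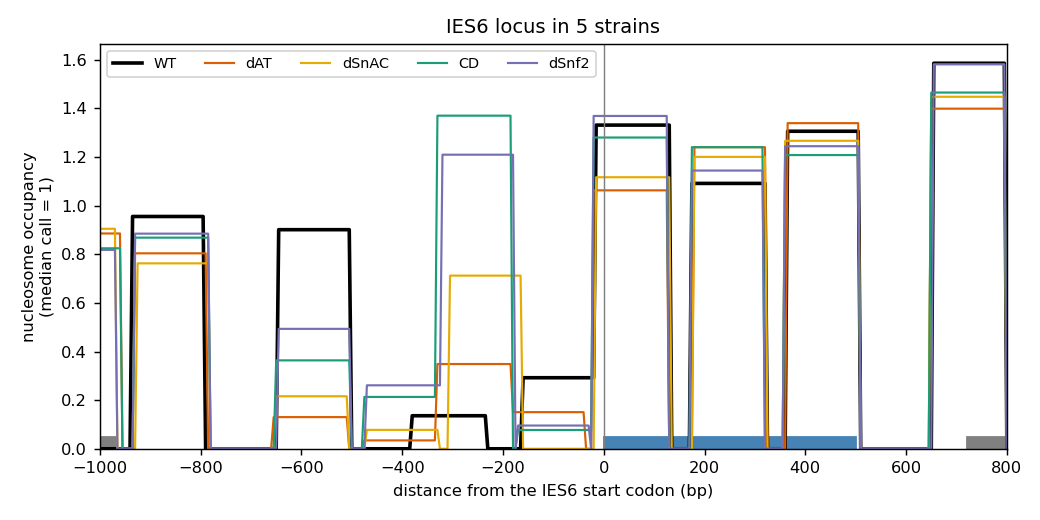
Occupancy (y axis, median call = 1) of each strain against distance from the IES6 start codon in bp (x axis), with calls drawn as footprints of nucleosome length, IES6 as a blue bar and the neighbours GLY1 (left) and GTA1 (right) as grey bars. WT is highest at -576 bp, and CD and dSnf2 are highest near -258 bp.

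Over the coding region of IES6 the strains differed less. The call at 57 bp had an occupancy of 1.33 (WT), 1.06 (dAT), 1.12 (dSnAC), 1.28 (CD) and 1.37 (dSnf2). Mean occupancy over the coding region was 1.03 in WT and 1.00 to 1.03 in the mutants. IES6 shares its 964 bp upstream region with the divergent GLY1, which encodes threonine aldolase, and the -576 bp dyad lies 389 bp from the GLY1 start codon. Which of the 2 genes the promoter nucleosomes belong to therefore cannot be told apart from these lists. The GLY1 promoter window gave -0.16, -0.26, -0.08 and -0.09 in the order dAT, dSnAC, CD and dSnf2. Its coding region gave 0.68, 0.44, 0.48 and 0.28, against 0.818% of all genes at or above 0.58 in dAT, so GLY1 was denser than WT over its body while its promoter window was not.

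The IES6 result depends on the position of the window. From -200 to -1 bp, which leaves out most of the -258 bp footprint, the ratio was -0.27 (dAT), -0.34 (dSnAC), -0.07 (CD) and 0.12 (dSnf2). Without calls below 0.25 the dAT ratio was -0.02, so its direction is not settled. The 5 named genes whose 4 promoter ratios lay nearest to those of IES6 by Euclidean distance, among 5069 candidates, were ZEO1 (distance 0.332), HXT3 (0.355), TDH3 (0.374), AAC1 (0.560) and OPT1 (0.598). TDH3, the major glyceraldehyde-3-phosphate dehydrogenase gene, had 0.07 (dAT), 0.42 (dSnAC), 0.84 (CD) and 0.92 (dSnf2). HXT3, a glucose transporter gene, had 0.19, 0.38, 0.81 and 1.05. In all 5 the 2 highest ratios were those of CD and dSnf2, the feature that the distance selects for.

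Among the ISWI genes, ISW2 (YOR304W, chromosome XV, 884514 to 887876, plus strand), the ATPase of a remodeller known for moving nucleosomes toward promoters, had a sparser promoter window in every mutant. Its promoter occupancy was 0.588 (WT), 0.449 (dAT), 0.408 (dSnAC), 0.495 (CD) and 0.526 (dSnf2), or log2 ratios of -0.33, -0.44, -0.21 and -0.14. dSnAC was the lowest strain, and the half-widths in the plot of promoter ratios are near 0.1. Both calls that flank its depleted region were lower: the dyad at -365 bp had 1.23 in WT, 0.907 in dAT and 0.846 in dSnAC, and that at -102 bp had 0.989, 0.721 and 0.663. The gap between them kept its width, at 263 bp in WT and 263 to 269 bp in the mutants. Farther upstream, over the tandem neighbour CPA1, the calls at -689 and -947 bp were higher than WT in all 4 mutants. In the order dAT, dSnAC, CD and dSnf2 they differed by 0.38, 0.36, 0.20 and 0.22 at -689 bp. At -947 bp the values were 0.68, 0.48, 0.53 and 0.46. The call at -541 bp, also over CPA1, was not denser throughout, with -0.04, -0.22, -0.06 and 0.05. The dyad at -947 bp, near the edge of the region and with an SD of 36.7 bp in WT, was displaced by 46, 4, 48 and 42 bp toward ISW2. At -1000 bp, inside this WT footprint, dAT, CD and dSnf2 each had a separate call. The calls here were thus split differently, and the displacement need not be that of 1 nucleosome.

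ISW1 (YBR245C, chromosome II, 708150 to 711539, minus strand), the ATPase of the Isw1 spacing complexes, had the highest promoter occupancy of the 10 genes in all 5 strains. It was 1.28 (WT), 1.20 (dAT), 1.19 (dSnAC), 1.21 (CD) and 1.21 (dSnf2). The ratios of -0.09, -0.10, -0.08 and -0.08 differed by no more than the counting half-widths among the mutants. The start codon of RRT2, which is divergent, lies 51 bp away, and the wide gap at this pair lay inside the ISW1 coding region, between dyads at -70 and 185 bp. That gap was 255 bp in WT and 247 to 253 bp in the mutants, and its midpoint of 57.5 bp in WT lay outside the positions searched for the other genes. The gene-side call at 185 bp was 0.965 (WT), 0.776 (dAT), 0.794 (dSnAC), 0.853 (CD) and 0.836 (dSnf2).

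CHD1 (YER164W, chromosome V, 505392 to 509798, plus strand), which encodes a single-subunit spacing remodeller, had its dyads closely spaced around the start codon: with the midpoint from -350 to 50 bp, the widest distance was 168 bp in WT and 172 to 180 bp in the mutants. In dAT that distance was another one, across the start codon. Farther upstream, outside the positions searched, neighbouring dyads were 227 bp apart in WT (-513 to -286 bp) and 201 to 239 bp in the mutants. Promoter occupancy was 1.04 (WT), 0.850 (dAT), 0.815 (dSnAC), 0.918 (CD) and 0.969 (dSnf2). All mutants were below WT, with ratios of -0.26, -0.32, -0.17 and -0.10. The dyad at -118 bp carried more of this difference than that at -286 bp. It had 1.14 (WT), 0.890 (dAT), 0.887 (dSnAC), 1.01 (CD) and 1.08 (dSnf2), against 1.29, 1.17, 1.14, 1.22 and 1.23 at -286 bp. A WT call of 0.815 at -661 bp had no partner in dAT.

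FUN30 (YAL019W, chromosome I, 114919 to 118314, plus strand) encodes a Snf2-family ATPase known for roles in silencing and in DNA end resection. Its promoter was 0.893 (WT), 0.741 (dAT), 0.768 (dSnAC), 0.780 (CD) and 0.828 (dSnf2), which gives ratios of -0.24, -0.19, -0.17 and -0.10. The depleted region it shares with the divergent ATS1, whose start codon is 303 bp away, was 266 bp wide in WT and 267 to 273 bp in the mutants. Beyond it, from -1000 bp to the edge of the promoter window and thus over the ATS1 coding region, occupancy was 0.743 (WT), 1.20 (dAT), 1.08 (dSnAC), 0.896 (CD) and 0.814 (dSnf2). All mutants were above WT, dAT most and dSnf2 least. The ratio in dAT was 0.62, and 18 of the 5871 genes had a higher one. It was 0.48 in dSnAC, 0.24 in CD and, the smallest, 0.12 in dSnf2. In this distal window 1 of the 10 genes was at or above 0.58 in dAT and 0 in the other mutants, against 0.511%, 0.290%, 0.477% and 0.579% of all genes in the order dAT, dSnAC, CD and dSnf2. None was at or below -0.58, against 1.46%, 0.307%, 0.0170% and 0.0511%.

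Each of the 4 WT calls over ATS1 at -976, -816, -668 and -508 bp was higher in dAT, by 0.72, 0.76, 0.83 and 0.77. In dSnAC the same calls were higher by 0.47, 0.67, 0.62 and 0.60. The call at -333 bp, next to the gap, differed by 0.16 and 0.12. In the FUN30 coding region 2 calls passed 0.58 in dAT: that at 434 bp had 0.838 in WT and 1.34 in dAT, and that at 1385 bp had 0.698 and 1.10. The distal window over ATS1 and these FUN30 calls were therefore denser in dAT, while the 300 bp before the start codon was not. The 3′ part of FUN30 was not denser throughout. There the WT calls at 2363, 2617, 2830, 2978 and 3204 bp differed in dAT by 0.10, -0.16, -0.08, 0.02 and -0.34.

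**Figure D3:**
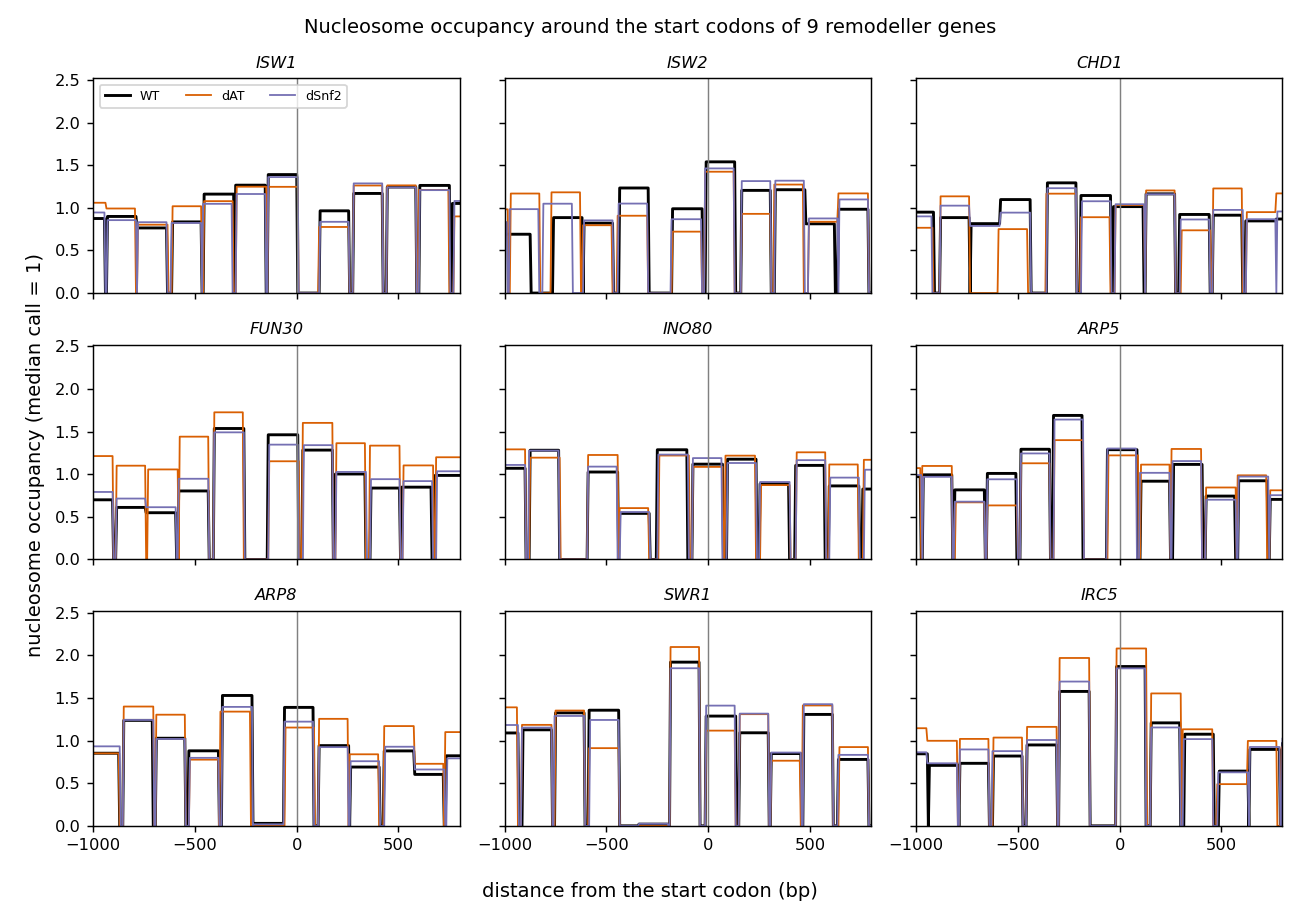
Occupancy (y axis, median call = 1) against distance from the start codon in bp (x axis) for the 9 genes other than IES6, in WT, dAT and dSnf2, with calls drawn as footprints of nucleosome length. Calls of the 3 strains lie at nearly the same positions around the start codons, and dAT exceeds WT over the region upstream of FUN30.

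INO80 (YGL150C, chromosome VII, 221104 to 225573, minus strand), the ATPase of the INO80 complex, varied least among the 10 promoters together with ISW1. Promoter occupancy was 0.932 (WT), 0.893 (dAT), 0.868 (dSnAC), 0.913 (CD) and 0.933 (dSnf2), and the ratios were -0.06, -0.09, -0.03 and 0.00. YGL149W, an open reading frame on the opposite strand, covers this whole window. With its midpoint from -350 to 50 bp the widest dyad distance was 185 bp in WT and 188 to 196 bp in the mutants. A wider one, 287 bp in WT (-805 to -518 bp) and 285 to 294 bp in the mutants, lay outside the positions searched, on the side of the divergent ARO2, whose start codon is 825 bp away.

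ARP5 (YNL059C, chromosome XIV, 512668 to 514935, minus strand) encodes the actin-related protein that pairs with Ies6. Its promoter had 0.932 (WT), 0.802 (dAT), 0.821 (dSnAC), 0.879 (CD) and 0.948 (dSnf2). dAT and dSnAC were below WT by more than counting error, with ratios of -0.19 and -0.16, and dSnf2 was not, at 0.02. The depleted region was 267 bp in WT and 261 to 268 bp in the mutants. The tandem YNL058C ends 827 bp upstream. The call at -255 bp was 1.69 (WT), 1.40 (dAT), 1.41 (dSnAC), 1.52 (CD) and 1.64 (dSnf2).

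ARP8 (YOR141C, chromosome XV, 589942 to 592587, minus strand) encodes a nuclear actin-related protein of the INO80 module that binds DNA outside the nucleosome. Its promoter had 0.724 (WT), 0.547 (dAT), 0.532 (dSnAC), 0.592 (CD) and 0.643 (dSnf2). The ratios of -0.35, -0.38, -0.25 and -0.15 made it the lowest of the 10 in dAT, CD and dSnf2, though by less than the counting error from ISW2. The calls on both sides of its depleted region were lower in all 4 mutants: that at -292 bp had 1.53 in WT and 1.20 to 1.42 in the mutants, and that at 10 bp had 1.39 and 1.15 to 1.23. The call at -457 bp, at the start of the divergent LSC1, had 0.881 in WT and 0.777 to 0.883 in the mutants. A call of 0.0291 at -144 bp lies inside the region, and without calls under 0.25 the region was 302 bp in WT, 317 bp in dAT, 317 bp in dSnAC, 313 bp in CD and 303 bp in dSnf2.

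The 3 INO80 subunit genes thus differed from each other. From -300 to -1 bp IES6 was higher than WT in dSnAC, CD and dSnf2, with a direction in dAT that turned with the weak calls, and the 3 also depend on the window as given above. ARP8 was lower in all 4 mutants and ARP5 in 3.

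SWR1 (YDR334W, chromosome IV, 1135932 to 1140476, plus strand), the ATPase of the SWR1 complex, had a promoter occupancy of 0.996 (WT), 1.08 (dAT), 1.08 (dSnAC), 0.998 (CD) and 0.971 (dSnf2). dAT and dSnAC were slightly above WT, at 0.11 and 0.10, and CD and dSnf2 were within counting error of it, at 0.00 and -0.03. One sharply placed call at -115 bp, with a dyad SD of 11.0 bp in WT, made up nearly all of this window. It had 1.92 (WT), 2.10 (dAT), 2.10 (dSnAC), 1.92 (CD) and 1.85 (dSnf2). Upstream of it lay the widest depleted region of the 9 genes other than IES6, 398 bp in WT and 395 to 396 bp in the mutants once calls under 0.25 were left out. The call on its far side, at -513 bp at the start of the divergent RQC1, was lower in dAT (0.912 against 1.36 in WT) and least so in dSnf2 (1.24).

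IRC5 (YFR038W, chromosome VI, 229380 to 231941, plus strand) encodes a Snf2-family ATPase related to mammalian HELLS. Its promoter occupancy was higher than WT in all 4 mutants: 0.885 (WT), 1.07 (dAT), 0.996 (dSnAC), 0.945 (CD) and 0.947 (dSnf2). Here dAT was farthest from WT, with ratios of 0.25, 0.15, 0.09 and 0.09. In dAT 93 of the 5871 genes had a higher ratio. The call at -222 bp was 1.58 (WT), 1.97 (dAT), 1.82 (dSnAC), 1.73 (CD) and 1.69 (dSnf2), and it lies in the coding region of the divergent RSC8, a subunit gene of the RSC remodeller, whose start codon is 193 bp away. The 4 calls farther into RSC8, from -866 to -382 bp, were higher in dAT by 0.27 to 0.44. The depleted region between the genes was 277 bp in WT and 277 to 280 bp in the mutants.

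With all calls, the width of the widest gap differed from WT by 20 bp or more at 2 of the 10 genes in dAT and in dSnAC, and at 1 in CD and in dSnf2, against 17.8%, 15.9%, 13.2% and 12.6% of genes. IES6 was 1 of them in each mutant and SWR1 the other in dAT and dSnAC. These shares of 10 genes are close to the background. Widths were compared even where the widest gap was not the same one: its gene-side dyad differed by 20 bp or more at some genes, among them ISW1, and in dAT CHD1 and ARP8. SWR1 was counted because a WT call of 0.0204 at -269 bp divides its depleted region. Without calls under 0.25 IES6 alone remained in each mutant, against 14.5%, 12.5%, 11.8% and 11.6% of genes.

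Past the stop codon, near where transcription terminates, the 10 genes were lower than WT in every mutant, except ARP8 in dSnf2 (0.03). Most genes were lower here: 8.86% (dAT), 10.8% (dSnAC), 11.7% (CD) and 20.2% (dSnf2) of all genes had a ratio above 0. Mean occupancy over the 300 bp after the stop codon gave a log2 ratio at or below -0.58 at 6 genes in dAT (CHD1, FUN30, INO80, ARP5, SWR1 and IRC5), 1 in dSnAC (FUN30), 1 in CD (ARP5) and 0 in dSnf2, against 19.2%, 6.98%, 1.43% and 1.02% of all genes. None was at or above 0.58, against 0.409%, 0.460%, 0.596% and 0.801%. The medians of the 10 log2 ratios were -0.64, -0.43, -0.26 and -0.13, beside -0.35, -0.27, -0.17 and -0.09 for all genes. FUN30 had 0.938 (WT), 0.488 (dAT), 0.576 (dSnAC), 0.741 (CD) and 0.777 (dSnf2), and CHD1 had 0.739, 0.388, 0.493, 0.498 and 0.618. In both, WT was the highest and dAT the lowest strain. IES6 (-0.14 in dAT) and ARP8 (-0.10) differed least. At ARP5 the WT call 66 bp past the stop codon had no partner in dAT or CD. These strains had calls without a WT partner at 2258 bp (dAT) and 2255 bp (CD), inside the ARP5 coding region. The calls at this stop codon were thus split differently, and the ARP5 window ratios of dAT and CD include that difference.

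In 9 of the 10 genes dAT was the lowest of the mutants there, as in 74.3% of all genes. The ratio was ordered dAT, dSnAC, CD, dSnf2 from low to high in 7 of the 10, as in 55.2% of all genes, so the members' order is close to the common one. A total of 5 genes face a convergent neighbour within 300 bp (GPX2 at ISW1, LDS1 at FUN30, NUT1 at INO80, NOP2 at ARP5 and OSW7 at IRC5), so reads past these stop codons also lie near the end of another gene.

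**Figure D4:**
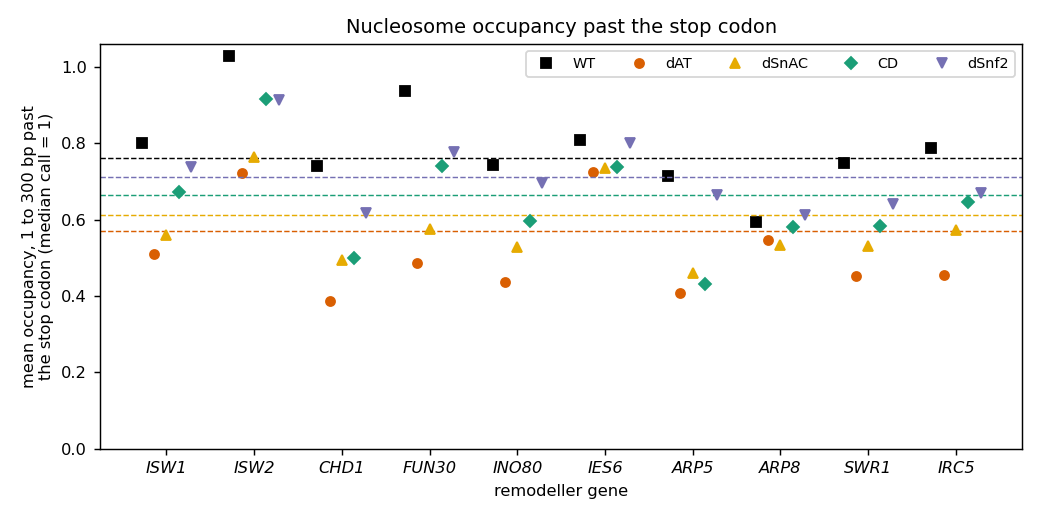
Mean occupancy from 1 to 300 bp past the stop codon (y axis, median call = 1) of the 10 genes (x axis) in the 5 strains, with the all-gene median of each strain as a dashed line. At every gene except ARP8 the WT square is the highest point and the dAT circle the lowest.

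The first call past the stop codon, where matched, was also lower than WT except at ARP8 in dSnf2, but its ratio could differ from that of the window. In dAT it was -0.91 at ISW1, which was not counted by window, and -0.21 at IRC5, which was. At CHD1, 69 bp past the stop codon, the first call had an occupancy of 1.48 (WT), 0.777 (dAT), 0.967 (dSnAC), 0.989 (CD) and 1.23 (dSnf2). At SWR1, 78 bp past it, the values were 1.42, 0.848, 1.02, 1.12 and 1.21, and at ISW1, 108 bp past it, 0.811, 0.383, 0.453, 0.587 and 0.665. These 3 genes, chosen after their values were seen, had the order WT, dSnf2, CD, dSnAC, dAT from high to low, as did INO80 and IES6. The other 4 of the 9 genes with partners in every mutant, ISW2, FUN30, ARP8 and IRC5, did not have it. The share of all genes with this order at the first call was not computed, so the order cannot be called particular to these genes. At ARP8 the dSnf2 value of 1.17 lay above WT, 1.15, and the ARP5 call had no partner in dAT or CD.

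Over the whole regions, 10, 11, 8 and 5 of the 246 WT calls had no partner in dAT, dSnAC, CD and dSnf2, against 3.55%, 3.28%, 3.01% and 3.15% of all calls. Calls at or above 0.58 numbered 9 (dAT), 4 (dSnAC), 1 (CD) and 1 (dSnf2), against 1.79%, 0.727%, 0.473% and 0.470% of all matched calls. In CD and dSnf2 the single one was the IES6 call near -258 bp, and in dSnAC 3 of the 4 lay over ATS1. Calls at or below -0.58 numbered 10, 4, 3 and 2, against 7.10%, 3.61%, 1.24% and 0.583%. Of the 10 in dAT, 7 lay past a stop codon, in CHD1, FUN30, INO80, ISW1 and SWR1. The share of such calls past the stop codons of all genes was not computed. By window, 19.2% of all genes were at or below -0.58 past the stop codon in dAT, against 11.0% at the promoter. A weak CHD1 call, 281 bp past the stop codon, is among the 7, with 0.130 in WT and 0.0173 (11 reads) in dAT.

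Gene bodies differed less. The median log2 ratio over the 10 coding regions was 0.12 (dAT), 0.07 (dSnAC), 0.05 (CD) and 0.04 (dSnf2), beside all-gene medians of 0.035, 0.026, 0.010 and -0.003. The 27 genes listed below for the same complexes had medians of 0.15, 0.13, 0.04 and 0.01. None of the 10 reached 0.58 in either direction, against 0.818%, 0.460%, 0.392% and 0.255% of all genes above it and 0.647%, 0.273%, 0.119% and 0.119% at or below -0.58. SWR1 had the highest ratio in dAT, 0.26, with 0.706 in WT and 0.862 in dAT. Its call at 1509 bp, with a dyad SD of 41.5 bp in WT, had 0.611 (WT), 1.06 (dAT), 0.850 (dSnAC), 0.930 (CD) and 0.781 (dSnf2). The next WT call, at 1657 bp, had no partner in dAT or dSnAC. These strains had calls without a WT partner at 1741 bp (dAT) and 1738 bp (dSnAC), so the calls of this stretch were split differently. The median spacing between dyads over the 10 coding regions was 168 bp in WT and 165 to 167 bp in the mutants.

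Positions varied mainly where nucleosomes were fuzzy. Displaced dyads, at 20 bp or more from their WT partner, numbered 25 of 236 in dAT, 14 of 235 in dSnAC, 22 of 238 in CD and 21 of 241 in dSnf2, against 9.19%, 8.67%, 8.84% and 9.01% of all matched calls, so these shares are near the background or below it. The median displacement was 2 to 4 bp. The members held a larger share of fuzzy calls than the genome. In dAT 97 of their 236 matched calls had a WT dyad SD of 35 bp or more, against 15543 of all 61035 matched calls. The total shares thus compare unlike mixtures. Of the 62 calls with a WT dyad SD under 25 bp, 1, 1, 1 and 0 were displaced, beside 1.23%, 1.04%, 0.904% and 0.854% of all such calls. With an SD of 25 to 35 bp the share was 2.60% (dAT), 1.32% (dSnAC), 0% (CD) and 1.28% (dSnf2), or 2, 1, 0 and 1 calls, beside 7.49%, 6.96%, 7.25% and 7.23% of all such calls. Of those with an SD of 35 bp or more, the share displaced was 22.7% (dAT), 12.4% (dSnAC), 21.4% (CD) and 19.8% (dSnf2), beside 21.3%, 20.3%, 20.6% and 21.4% of all such calls.

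**Figure D5:**
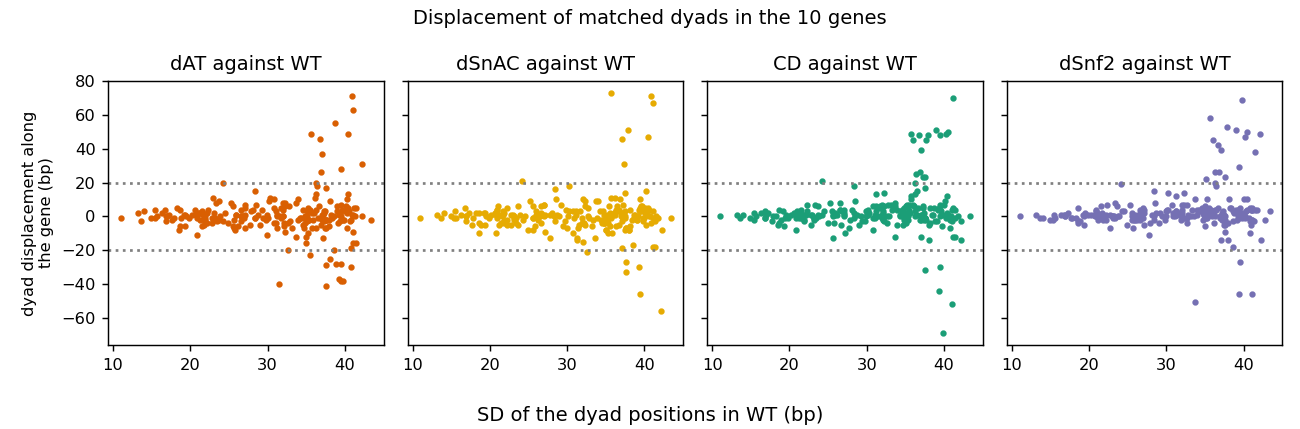
Displacement of each matched dyad along its gene in bp (y axis, positive toward the 3′ end) against the SD of its dyad positions in WT in bp (x axis) in the 4 mutants, with dotted lines at 20 bp either way. Calls with a small SD stay close to 0, and nearly all displaced calls have an SD of 35 bp or more.

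The other subunits of the same complexes were compared through a list of 27 genes, in which HTZ1, the gene of the H2A.Z that SWR1 exchanges, is counted with them. Their median promoter ratio was -0.33 (dAT), -0.28 (dSnAC), -0.20 (CD) and -0.07 (dSnf2), close to the all-gene medians given above. None was at or above 0.58, and 5, 3, 1 and 0 were at or below -0.58, beside the shares of all genes given above. ITC1, the partner subunit of Isw2, had 1.12 (WT), 0.614 (dAT), 0.752 (dSnAC), 0.815 (CD) and 0.963 (dSnf2), a ratio of -0.78 in dAT. Like ISW2 itself, ITC1 was lower than WT in every mutant, which is the direction of most genes in each mutant. The INO80 subunit gene IES4 had a ratio of -0.65 in dAT and -0.09 in dSnf2.

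NHP10, an HMG-box subunit of INO80, had 0.462 (WT), 0.25 (dAT), 0.269 (dSnAC), 0.286 (CD) and 0.326 (dSnf2), with ratios of -0.68 in dAT and -0.61 in dSnAC. IES5, another INO80 subunit, had -0.75 in dAT, -0.82 in dSnAC and -0.69 in CD. BDF1, a bromodomain protein of SWR1, had -0.81 in dAT and -1.03 in dSnAC. IES5 and BDF1 had low WT promoter occupancies, 0.268 and 0.179. In dSnf2 the 2 lowest were BDF1 (-0.51) and NHP10 (-0.40), and the 2 highest were IOC4 (0.06), a subunit of an Isw1 complex, and IES3 (0.02).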

How the data were processed

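The authors deposited 1 list of nucleosome calls per strain, made on merged replicates, per the labels. The submitters' processing notes name Bowtie, an aligner, and the build sacCer3. The caller, smoothing and filters were not given in the sources used here. Per the file headers, each call has other values in bp (start, stop, dyad and dyad SD) and an occupancy, a deposited coverage signal whose scaling is not given. All occupancies were whole multiples of the smallest (100% within 0.01), and that step was taken as 1 read. No count model could be fitted with 1 list per strain.

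Gene positions came from RefSeq's R64 table, the same assembly as sacCer3, which named all 10 genes and the 27 other subunits. Strand was read from the systematic name, and positions count from the start codon, since no transcription start sites were used. Of 6002 nuclear genes, 131 in the outer 10 kb of chromosomes were left out. Occupancies were divided by the median nuclear call outside the rDNA and drawn as footprints of 73 bp to each side of the dyad, so a difference shared by all calls is not seen, and unequal digestion cannot be told apart from occupancy. Dyads of a mutant and WT were paired where each was the other's nearest, within 73 bp. The depleted region was the widest dyad distance with its midpoint from -350 to 50 bp. Poisson intervals cover counting error only and, for a ratio, the reads of both lists.

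All 10 genes are named. Of the other subunits, those past 0.58 in a mutant are named, or failing that the 2 highest and 2 lowest, and for IES6 the 5 nearest genes with a mean promoter occupancy of at least 0.25. Neighbours are named where they lie in a region, and SNF2 as a check. Members and lists were chosen with earlier results of these data known. Scripts used Python 3.11.15, NumPy 2.4.6, pandas 2.3.3 and SciPy 1.17.1, and were tested on simulated data. Alternatives changed the scaling, pseudocount, window, footprint, size rule, match distance, weak calls, gap position and displacement. The deposited conditional position and SD of call length were not used.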

Additional observations from a re-analysis of the deposited data

How the results depend on the processing

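Each strain has 1 merged list, so no replicate could be left out and no difference has a replicate check. No paired analysis was possible because the lists pool the replicates. Of 280 promoter ratios of single genes under the alternatives, 216 stayed within counting error, 63 moved beyond it and 1 was counted as reversed. A reversal was counted only where the main ratio had passed 0.58, so smaller ratios that turned are among the other counts. Another sign appeared in 16 of 240 ratios with the centred ones left out: 5 at INO80, 4 at IES6, 3 at SWR1, 2 at FUN30 and 2 at ARP5. IES6 turned direction in CD with the window from -200 bp (-0.072), in dSnAC with that window (-0.34), and in dAT with that window (-0.27) or without calls below 0.25 (-0.02). Subtracting the all-gene median turned the members' median to 0.15 (dAT), 0.097 (dSnAC), 0.072 (CD) and 0.029 (dSnf2), and the window from -500 bp gave -0.040 in dAT and -0.034 in dSnAC. With IES6 left out, an alternative chosen after seeing the data, the medians were -0.19, -0.16, -0.08 and -0.08. Members past 0.58 numbered 1 in dSnAC after subtracting the median, without calls below 0.25 or with the shorter footprint, and 0 in CD and dSnf2 with the window from -200 bp. Other subunits past 0.58 numbered 0 in dAT and 0 in CD after subtracting the median, 1 in dAT, 1 in dSnAC and 0 in CD with a pseudocount of 0.25, 2 in dAT, 0 in dSnAC and 0 in CD with the window from -500 bp, and 1 in dSnf2 without calls below 0.25. At a size rule of 1, calls above it numbered 0 in dAT and 1 in dSnAC, and calls below it 1 in dAT, 1 in dSnAC and 1 in dSnf2. With a pseudocount of 0.25, 1 call was at or above 0.58 in dSnAC and 5 were at or below -0.58 in dAT. The IES6 call near -258 bp was counted in neither CD nor dSnf2 (0 calls) when matching was limited to 40 bp or calls below 0.25 were left out, since its WT partner is weak and 49 or more bp away, and 1 call then remained at or below -0.58 in dSnf2 without the weak calls. Displaced dyads numbered 14 in dAT at 30 bp, 6 in dSnAC, 9 in CD and 9 in dSnf2 when matched within 40 bp, and 1, 1, 1 and 0 among calls with a WT dyad SD up to the median. Depleted regions that differed in width numbered 1 in dAT with the gap midpoint from -250 to 0 bp, and 1 in dAT and 1 in dSnAC without calls below 0.25. Beyond what an alternative's own construction shows, the cause was not tested. The dSnAC list is the shallowest, with 31879115 reads, and its weakest calls are the least precise.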
